A study of Mus musculus with 12 samples.

Results

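The genes described here are the 7 core genes of cellular iron uptake, storage and export, followed in bone marrow macrophages (BMMs) with and without the microRNA miR-182: *Tfrc*, *Steap3*, *Slc11a2*, *Slc11a1*, *Fth1*, *Ftl1* and *Slc40a1*. They were picked by symbol and role, with no threshold on a measured value but with earlier results of these data known, and all 7 were present among the 24421 genes listed in the files. RNA-seq was carried out on 12 libraries, 2 replicates of each of 6 conditions. In the loss of function experiment, WT cells (Mir182+/+LysMcre(+)) and Mir182ΔM/ΔM cells (Mir182flox/floxLysMcre(+)) were grown from marrow for 3 days with M-CSF, the macrophage growth factor, and left at basal or treated for 5 days with RANKL, the cytokine that turns macrophages into bone-resorbing osteoclasts. In the gain of function experiment, Control cells (LysMcre(+)) were set beside Mir182mTg cells, in which Cre removes a STOP fragment before a *Mir182* cDNA knocked into *Rosa26*, both at basal. All mice were C57BL/6 by label and all carried LysMcre, so Cre was under the lysozyme M promoter of myeloid cells in controls too. Per the study, WT animals were littermates of Mir182ΔM/ΔM animals and Control animals of Mir182mTg animals, matched for gender and age. The ages and the number of animals behind a library were not given in the sources used here. The study's question was how miR-182 acts on osteoclast formation, and the comparisons below ask how the iron genes responded to RANKL and whether they differed with the miR-182 genotype.

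Levels are CPM, the reads of a gene per 1000000 reads on genes. The libraries held 24951280 to 33050619 reads on genes, so that 3 reads, taken as the floor, were 0.0908 to 0.120 CPM, far below every value of the 7 genes. The *Mir182* gene was read 79 and 123 times in the Mir182mTg libraries, 1 time in a Mir182ΔM/ΔM basal library and in no other library. Poly-A libraries read the precursor poorly, so the deletion could not be checked this way. Macrophage markers summed to 5683 to 8655 CPM, and the 8 osteoclast markers summed to 10549 to 10762 CPM in WT RANKL, 3155 to 3183 CPM in Mir182ΔM/ΔM RANKL and 116 to 168 CPM in the basal conditions. Erythroid, lymphocyte, neutrophil and stromal marker lists reached at most 3.12, 0.484, 80.9 and 30.9 CPM in sum, and the globin genes *Hba-a1*, *Hba-a2*, *Hbb-bs* and *Hbb-bt* were at 0 in every library.

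In the loss of function experiment, the WT RANKL libraries did not resemble the rest. *Lyz2*, the lysozyme M gene in which the LysMcre transgene sits, was at 4117 and 4288 CPM in WT RANKL, against 39.8 and 44.0 CPM in WT basal and 22.5 to 34.6 CPM in Mir182ΔM/ΔM cells. It was at 5783 to 7062 CPM in the Control and Mir182mTg libraries. *Ifi202b*, an interferon-inducible gene of the Ifi200 family, was listed with *Lyz2* as a marker of mouse origin. It ran the other way, at 0.972 and 1.12 CPM in WT RANKL and 82.1 to 152 CPM in WT basal and Mir182ΔM/ΔM cells. In Control and Mir182mTg cells it was at 0 to 0.0908 CPM. By these genes the WT RANKL libraries were like the gain of function libraries and unlike the WT basal libraries. Whether the WT basal and WT RANKL libraries came from mice of the same strain origin, as labelled, was not tested. WT RANKL against WT basal, Mir182ΔM/ΔM against WT after RANKL, and the difference between the RANKL responses all rest on these libraries, whereas the Mir182ΔM/ΔM RANKL response and the basal genotype comparisons do not. The part of this difference in the results was not tested, and the Control basal level of each of the 7 genes is given for this reason.

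Iron enters most cells bound to transferrin, through the transferrin receptor encoded by *Tfrc*. In the endosome the ferrireductase STEAP3 reduces it and DMT1, encoded by *Slc11a2*, carries it to the cytosol, where it is used or stored in ferritin, a shell of heavy (*Fth1*) and light (*Ftl1*) chains. Macrophages also recover iron from engulfed red cells, and return it to blood through ferroportin, the exporter encoded by *Slc40a1*. NRAMP1, encoded by *Slc11a1*, moves metal ions out of the phagosome. Only RNA was measured, so whether NRAMP1 was made or active in these mice was not tested. Osteoclasts are known for many mitochondria and a high need for iron.

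Several of these mRNAs carry an iron responsive element (IRE), a short hairpin that the iron regulatory proteins encoded by *Aco1* and *Ireb2* bind when iron is low. In a 5′ UTR binding blocks translation, and in the 3′ UTR of *Tfrc* it protects the mRNA, so that RNA-seq can see the second kind of control and not the first. The hairpins are shown to let a reader see which of the 7 mRNAs hold a match to the rule below. A match was a C, 5 bases, a loop CAGTG followed by A, C or T, and 5 bases that pair with the first 5, with G-T pairs allowed, on the transcript strand. By this rule 22 of 19444 genes with a 5′ UTR (0.113%) and 107 of 19533 genes with a 3′ UTR (0.548%) held a match. Among the 7 genes, 3 held it in the 5′ UTR and 1 in the 3′ UTR. The sequences are from GENCODE vM21 transcripts on GRCm38 (mm10), with the 6 bases of the loop in capitals.
*Fth1* 5′ UTR, chr19:9982732-9982760, plus strand: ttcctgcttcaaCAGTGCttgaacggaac
*Ftl1* 5′ UTR, chr7:45459779-45459807, minus strand: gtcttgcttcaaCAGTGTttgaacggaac
*Slc40a1* 5′ UTR, chr1:45925465-45925493, minus strand: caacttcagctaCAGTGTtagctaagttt
*Tfrc* 3′ UTR, chr16:32631219-32631247, plus strand: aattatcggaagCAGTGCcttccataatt
*Tfrc* 3′ UTR, chr16:32631598-32631626, plus strand: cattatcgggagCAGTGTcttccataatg
*Tfrc* 3′ UTR, chr16:32631663-32631691, plus strand: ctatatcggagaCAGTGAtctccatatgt
*Tfrc* 3′ UTR, chr16:32631710-32631738, plus strand: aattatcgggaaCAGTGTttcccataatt
No match by these letters was in the annotated UTRs of *Slc11a2*, *Slc11a1* or *Steap3*. The rule allows no unpaired base among the 5 pairs, so it would miss an element of another shape. The lack of a match does not show that these mRNAs lack an IRE.

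The miR-182 sequence is shown because its seed, bases 2 to 8, is what pairs with targets. The mature miR-182-5p of RefSeq (GRCm38.p6, chr6:30165962-30165986, minus strand) and the only full seed match in a 3′ UTR of the 7 genes, TTGCCAA in *Tfrc* at chr16:32632685-32632691 on the plus strand, are given with the seed and the match in capitals.
miR-182-5p: uUUGGCAAugguagaacucacaccg
*Tfrc* site: ttggtttggacTTGCCAAcctatactgtct
A match of this kind was in the 3′ UTR of 2613 of 19533 genes (13.4%), searched on the transcript strand. The other form of 7 letters, TGCCAAA, which pairs with bases 2 to 7 and is followed by A, was in 2892 genes (14.8%) and among the 7 genes in *Steap3*. A match is a description of the letters and does not show that the miRNA acts there.

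Under RANKL the 7 genes moved in both directions (the plot of levels by library). In Mir182ΔM/ΔM cells, 5 fell and 2 rose, and in WT cells 4 fell, 2 rose and *Tfrc* did not pass, by limma on log2(CPM + 1) with Benjamini-Hochberg adjustment over 11691 genes and a threshold of 0.05. RANKL changed much of the transcriptome, with 62.5% of all genes tested past the threshold in WT cells and 56.8% in Mir182ΔM/ΔM cells, so a count of 6 or 7 of 7 is read against these shares. By direction they were 40.6% higher and 22% lower in WT, and 30.4% higher and 26.4% lower in Mir182ΔM/ΔM cells. The 7 genes had a median log2 difference of -0.57 in WT and -0.71 in Mir182ΔM/ΔM cells, beside 0.19 and 0.05 over all genes. Scaling by TMM in place of the library total shifted the median of all genes by -0.19 for WT RANKL against basal, by 0.14 for Mir182ΔM/ΔM against WT after RANKL and by 0.16 for the difference between responses. The split of higher and lower calls over all genes went from 4741 and 2571 to 3355 and 3571 for the first, from 1668 and 3607 to 2438 and 2347 for the second and from 870 and 2005 to 1237 and 1265 for the third. In bulk RNA, fewer cells of a type and less RNA per cell cannot be told apart.

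**Figure D1:**
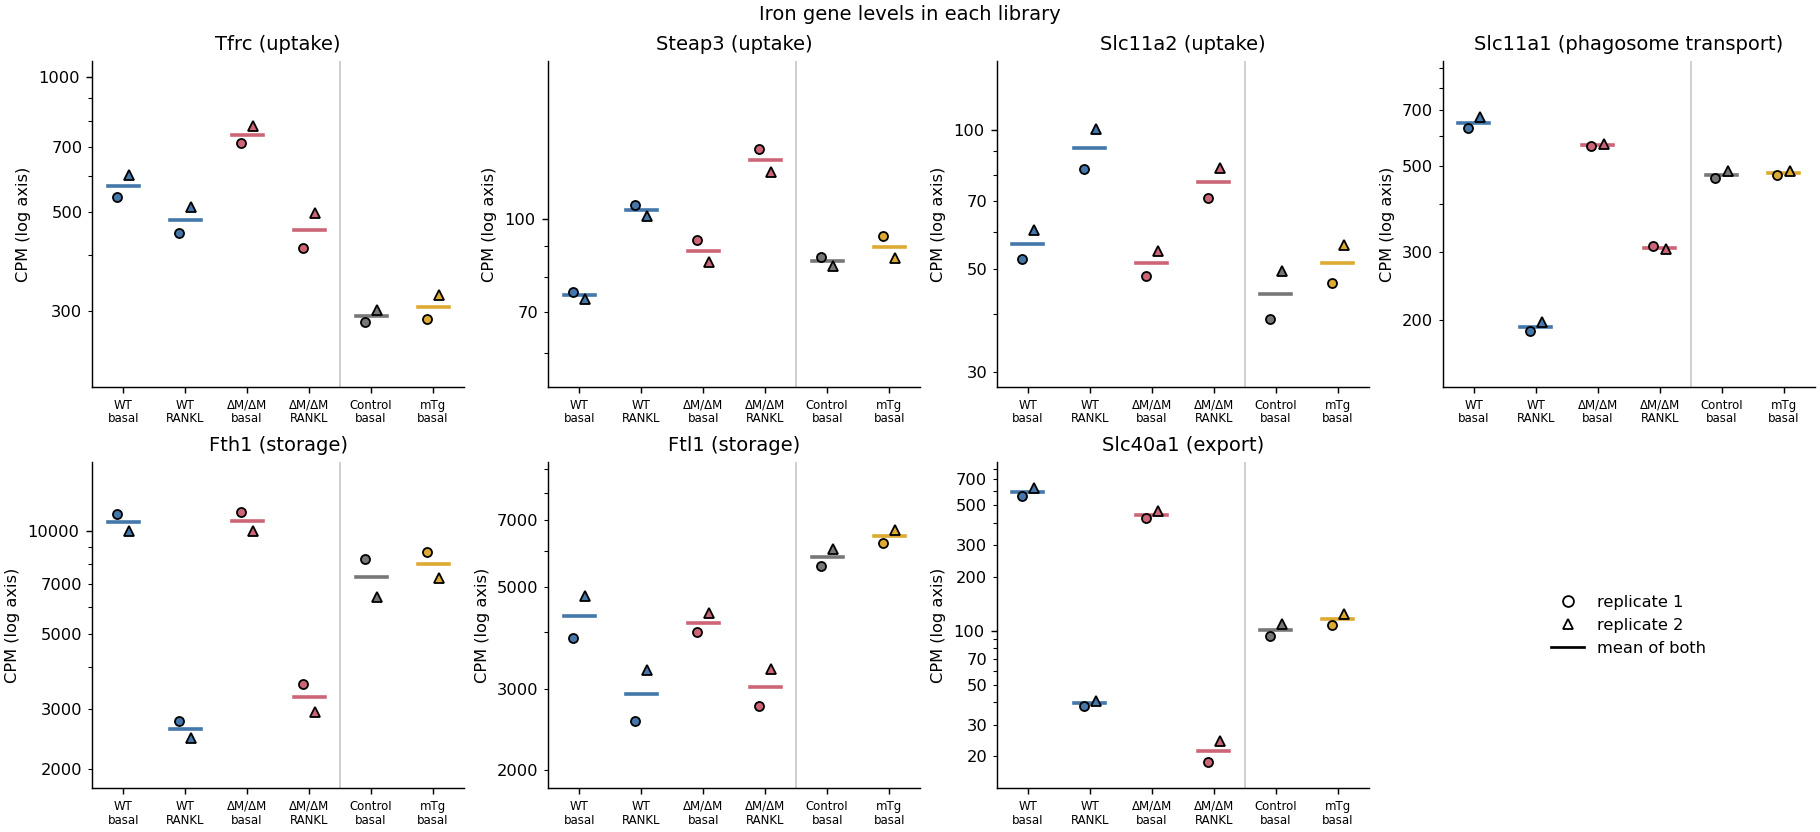
Levels of the 7 iron genes in CPM on a log axis in each library, with circles for replicate 1, triangles for replicate 2 and a line at their mean; the grey line parts the loss of function (left) from the gain of function (right) experiment. *Slc40a1*, *Fth1* and *Slc11a1* are lowest in the RANKL conditions, and *Slc40a1* sits at 93.8 to 125 CPM in the gain of function libraries against 422 to 621 CPM in the other basal libraries.

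Of the uptake genes, *Tfrc* (chr16:32608920-32632794, plus strand) was at 539 and 604 CPM in WT basal and 449 and 513 CPM in WT RANKL. In Mir182ΔM/ΔM cells it went from 712 and 776 CPM at basal to 416 and 496 CPM with RANKL. Both genotypes were lower with RANKL, without overlap, and the highest level of the 6 conditions was that of Mir182ΔM/ΔM basal. In Mir182ΔM/ΔM cells it fell by 0.71 ± 0.11 on the log2 scale (SE, adjusted p = 0.00142), with -0.77 within replicate 1 and -0.64 within replicate 2. In WT cells the difference was -0.25 ± 0.11 (SE) and did not pass (adjusted p = 0.0912), whereas with a block for the replicate number the adjusted p was 2e-07, and with TMM scaling the difference was -0.46 (adjusted p = 0.0113). The difference between the responses, -0.46 ± 0.16, did not pass either (adjusted p = 0.0800 by limma, and 1.36e-08 with the replicate block). The Control and Mir182mTg libraries had the lowest levels, at 284 to 326 CPM, and these conditions overlapped each other.

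*Steap3* (chr1:120190757-120272705, minus strand), the endosomal reductase, was at 73.8 and 75.7 CPM in WT basal and 101 and 106 CPM in WT RANKL. It was at 84.9 and 92.4 CPM in Mir182ΔM/ΔM basal and 120 and 130 CPM in Mir182ΔM/ΔM RANKL. The RANKL libraries were higher than the basal libraries of the same genotype in every case. The rise was 0.46 ± 0.074 on the log2 scale in WT (SE, adjusted p = 0.00126) and 0.49 ± 0.074 in Mir182ΔM/ΔM cells (adjusted p = 0.00110). The Control and Mir182mTg libraries, at 83.5 to 93.6 CPM, lay between WT basal and WT RANKL.

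*Slc11a2* (chr15:100387898-100425072, minus strand), which encodes DMT1, was at 52.6 and 60.7 CPM in WT basal and 82.3 and 101 CPM in WT RANKL. In Mir182ΔM/ΔM cells it was at 48.4 and 54.6 CPM at basal and 71.3 and 82.9 CPM with RANKL. It rose with RANKL in both genotypes, by 0.68 ± 0.13 in WT (SE, adjusted p = 0.00325) and 0.57 ± 0.13 in Mir182ΔM/ΔM cells (adjusted p = 0.00821) on the log2 scale. The call in Mir182ΔM/ΔM cells was lost without basal replicate 1 (adjusted p = 0.0517) and without RANKL replicate 2 (adjusted p = 0.0550). The 4 basal conditions, gain of function included, overlapped from one to the next, between 38.9 and 60.7 CPM. Its exons share 402 bases (6.33%) with *Gm5475* on the opposite strand, and whether counting used strand was not given in the sources used here.

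*Slc11a1* (chr1:74375195-74386062, plus strand), the phagosomal transporter of macrophages, was at 628 and 670 CPM in WT basal and 188 and 197 CPM in WT RANKL. In Mir182ΔM/ΔM cells it was at 564 and 572 CPM at basal and 305 and 312 CPM with RANKL. The fall was thus to 0.296 of the basal mean in WT and to 0.543 in Mir182ΔM/ΔM cells. On the log2 scale it fell by 1.75 ± 0.061 in WT (SE, adjusted p = 7.08e-07) and by 0.88 ± 0.061 in Mir182ΔM/ΔM cells (adjusted p = 2.15e-05). Levels in the gain of function libraries were 466 to 486 CPM, below both loss of function basal conditions and above both RANKL conditions. The summed level of 7 macrophage markers also fell, from 8468 to 8655 CPM in WT basal to 5683 to 5744 CPM in WT RANKL. In Mir182ΔM/ΔM cells it went from 7624 to 7629 CPM to 6011 to 6097 CPM. Single markers differed. After RANKL *Adgre1*, *Cd68*, *Fcgr1* and *Cd14* had a higher mean in Mir182ΔM/ΔM than in WT cells, and *Csf1r*, *Itgam* and *Mertk* a lower mean. The part of these markers in the result was not tested.

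**Figure D2:**
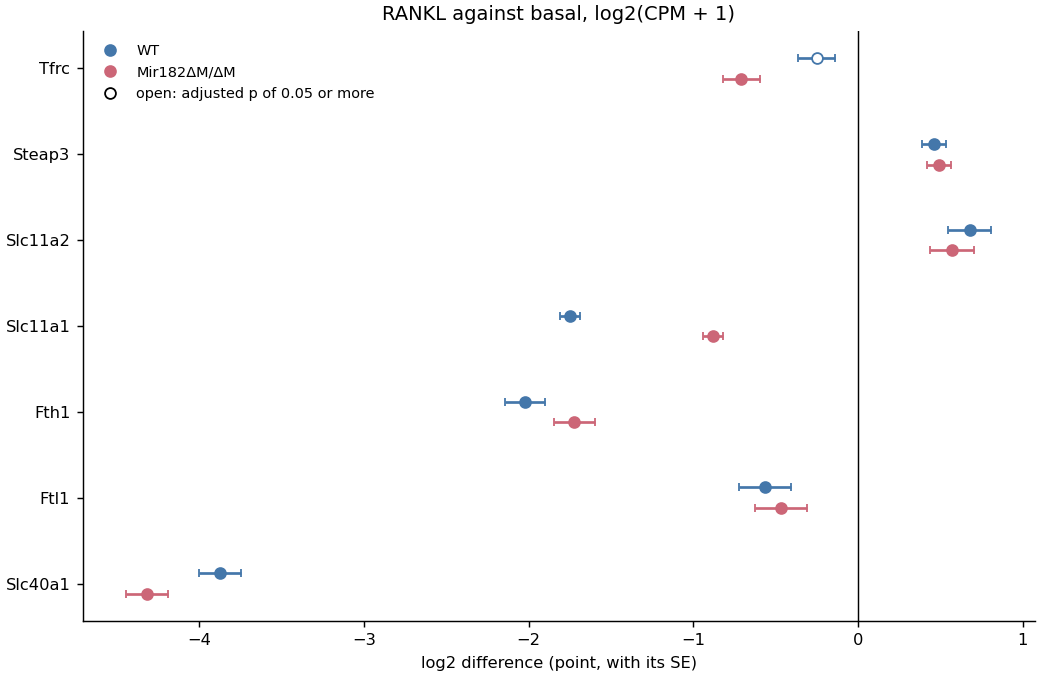
Log2 difference between RANKL and basal for each gene in WT (blue) and Mir182ΔM/ΔM (red) cells, with bars for the SE and open points for an adjusted p of 0.05 or more. The *Slc40a1* points are at -3.87 in WT and -4.32 in Mir182ΔM/ΔM cells, and *Slc11a1* is where the genotypes are farthest apart.

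The storage genes were the most abundant. Per kilobase of the length that the deposited RPKM imply, *Fth1* stood at 7045 ± 575 CPM (SD, n = 2) and *Ftl1* at 4459 ± 657 CPM in WT basal, beside 282 ± 13 CPM for *Slc11a1*, 175 ± 12 CPM for *Slc40a1*, 116 ± 9.3 CPM for *Tfrc*, 23.5 ± 0.42 CPM for *Steap3* and 10.1 ± 1.0 CPM for *Slc11a2*. Together the 2 ferritin genes took 1.48 and 1.51% of all reads on genes in WT basal and 0.534 and 0.576% in WT RANKL. The share was 1.44 and 1.54% in Mir182ΔM/ΔM basal and 0.628 and 0.633% in Mir182ΔM/ΔM RANKL, and 1.25 to 1.5% in the gain of function libraries. All basal libraries lay above all RANKL libraries.

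*Fth1* (chr19:9980598-9985098, plus strand), the heavy chain, which oxidises iron for storage, carried most of this. It was at 11259 and 10031 CPM in WT basal and 2777 and 2466 CPM in WT RANKL. It was at 11414 and 10061 CPM in Mir182ΔM/ΔM basal and 3570 and 2955 CPM in Mir182ΔM/ΔM RANKL. The RANKL level was 0.246 of basal in WT and 0.304 in Mir182ΔM/ΔM cells, log2 differences of -2.02 ± 0.12 (SE, adjusted p = 9.94e-06) and -1.72 ± 0.12 (adjusted p = 2.64e-05). *Fth1* was at 8275 and 6427 CPM in Control and 8726 and 7317 CPM in Mir182mTg, which overlapped and lay between the basal and RANKL levels of the other experiment.

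*Ftl1* (chr7:45457944-45459884, minus strand), the light chain, was at 3875 and 4776 CPM in WT basal and 2564 and 3298 CPM in WT RANKL. In Mir182ΔM/ΔM cells it was at 3993 and 4382 CPM at basal and 2755 and 3321 CPM with RANKL. It fell less than the heavy chain, by 0.57 ± 0.16 in WT (SE, adjusted p = 0.0175) and by 0.47 ± 0.16 in Mir182ΔM/ΔM cells (adjusted p = 0.0400) on the log2 scale. Neither call held under quantile normalization (adjusted p = 0.345 and 0.539). The WT call was lost without RANKL replicate 1 (adjusted p = 0.0989) or basal replicate 2 (0.0956), and the Mir182ΔM/ΔM call without basal replicate 1 (0.0764), basal replicate 2 (0.159) or RANKL replicate 1 (0.199). Unlike the heavy chain it was highest in the gain of function libraries, at 5556 and 6059 CPM in Control and 6237 and 6665 CPM in Mir182mTg. In the annotation 26.5% of its exonic bases are shared with *Gm10252* on the other strand, and reads from near-identical ferritin pseudogenes may also be split between copies.

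The ratio of heavy to light chain mRNA per kilobase was 1.87 and 1.35 in WT basal and 0.695 and 0.480 in WT RANKL (the plot of ferritin shares and ratios). It was 1.83 and 1.47 in Mir182ΔM/ΔM basal and 0.832 and 0.571 with RANKL. In the Control libraries it was 0.956 and 0.681, and in Mir182mTg 0.898 and 0.705. Replicate 1 had the higher ratio in every condition, and within each replicate number the ratio was higher in loss of function basal than in any other condition. With 2 libraries a group, an exact two-sided permutation test cannot give a p below 0.333, so none is printed.

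**Figure D3:**
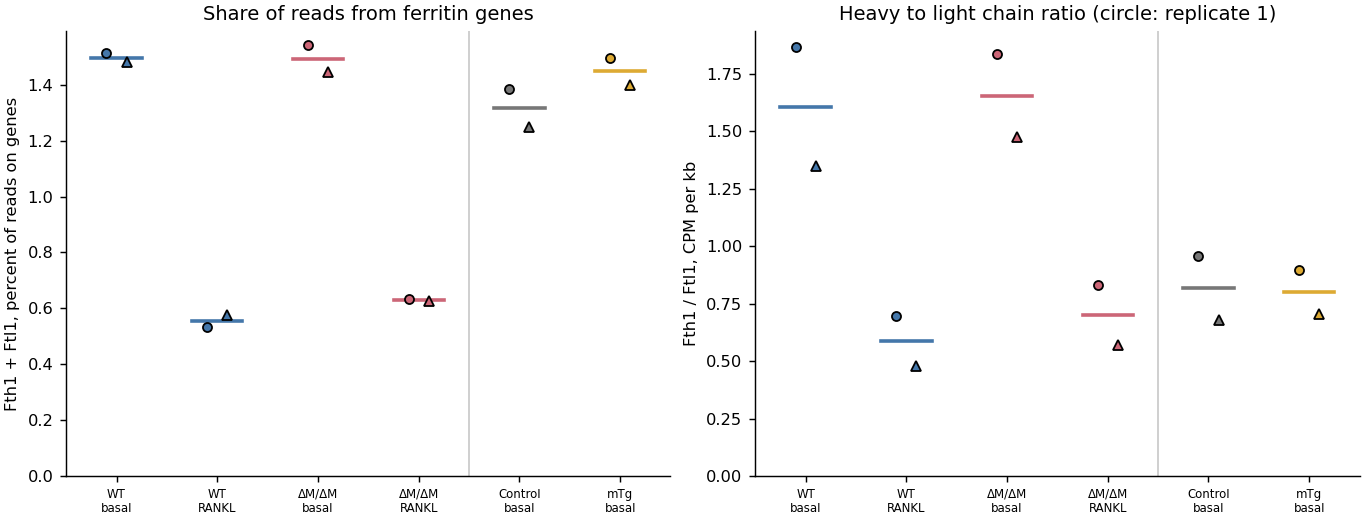
Left, reads of *Fth1* and *Ftl1* together as a percent of all reads on genes; right, *Fth1* over *Ftl1* in CPM per kilobase, in each library (circle replicate 1, triangle replicate 2, line their mean). The share was 0.534 to 0.633% in the RANKL libraries and at least 1.25% elsewhere, while the ratio of the gain of function libraries, 0.681 to 0.956, was nearer to that of the RANKL libraries.

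The exporter gene *Slc40a1* (chr1:45908068-45926523, minus strand) had the widest range of the 7 genes as a fold between its highest and lowest library. It was at 562 and 621 CPM in WT basal and 38.2 and 40.7 CPM in WT RANKL. It was at 422 and 463 CPM in Mir182ΔM/ΔM basal and 18.6 and 24.4 CPM in Mir182ΔM/ΔM RANKL. The basal mean was 15.0 times the RANKL mean in WT and 20.6 times in Mir182ΔM/ΔM cells. The log2 difference was -3.87 ± 0.13 in WT (SE, adjusted p = 5.47e-07), with -3.84 and -3.90 within replicates 1 and 2. It was -4.32 ± 0.13 in Mir182ΔM/ΔM cells (adjusted p = 5.13e-07), with -4.44 and -4.19 within replicates. The ratio of uptake receptor to exporter mRNA, *Tfrc* over *Slc40a1* in CPM per kilobase, went in WT from 0.660 and 0.668 at basal to 8.09 and 8.65 with RANKL. The basal values in Mir182ΔM/ΔM cells were 1.16 and 1.15, with 15.4 and 14 in Mir182ΔM/ΔM RANKL and 1.80 to 2.08 in the gain of function libraries, with no overlap between the 4 loss of function conditions. The Mir182ΔM/ΔM response does not use the WT RANKL libraries, and they enter its fit through the shared estimate of spread. With them left out of the fit, all 7 genes stayed past the threshold. The share of all genes past it in that fit is not given here, so this count is not read as a result about the 7 genes.

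The basal level of *Slc40a1* differed widely between the experiments. Control libraries held 93.8 and 109 CPM and Mir182mTg libraries 107 and 125 CPM, so that the WT basal mean was 5.83 times the Control basal mean. *Tfrc* was 1.95 times as high in WT basal as in Control basal, and *Fth1* 1.45 times, whereas *Ftl1* was lower in WT basal, at 0.745 of Control. Set beside Control basal in place of WT basal, WT RANKL had 0.389 of its *Slc40a1*, 0.357 of its *Fth1*, 0.405 of its *Slc11a1* and 0.505 of its *Ftl1*, and 1.64 times its *Tfrc*, 2.07 times its *Slc11a2* and 1.22 times its *Steap3*. Hence *Tfrc* in WT RANKL lay below WT basal but above Control basal, while the other 6 genes lay on the same side of both. The tables were normalized separately and no test was run across them.

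At basal the genotypes were close. None of the 7 genes passed in Mir182ΔM/ΔM against WT by limma or by edgeR on recovered reads, with 3.81% of all genes past the threshold (2.71% higher and 1.1% lower), while 4 had an unadjusted p below 0.05 by either tool. *Tfrc* was 1.30 times as high in Mir182ΔM/ΔM cells (log2 difference 0.38 ± 0.11, SE, adjusted p = 0.144) and *Steap3* 1.19 times (0.24 ± 0.074, adjusted p = 0.157). *Slc40a1* was at 0.748 of WT (-0.42 ± 0.13, adjusted p = 0.155) and *Slc11a1* at 0.874 (-0.19 ± 0.061, adjusted p = 0.169). The libraries of the genotypes did not overlap for these 4 genes. The shares of all genes without overlap, or with an unadjusted p below 0.05, are not given here. Neither count is therefore read as a result about the 7 genes. With 2 libraries a group, an exact two-sided permutation test cannot give a p below 0.333. When the replicate number was added as a block, these 4 and *Slc11a2* (-0.13 ± 0.043, SE) passed by limma, with adjusted p = 5.47e-09 for *Tfrc*, 5.2e-05 for *Steap3*, 1.19e-06 for *Slc40a1*, 7.33e-05 for *Slc11a1* and 0.0227 for *Slc11a2*, and 3651 genes in all (31.2%) were called in place of 446. *Fth1* and *Ftl1* overlapped between genotypes, with log2 differences of 0.012 ± 0.12 and -0.040 ± 0.16 (SE).

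After RANKL, *Slc11a1* and *Steap3* were higher and *Slc40a1* was lower in Mir182ΔM/ΔM than in WT cells. These were 3 of the 7 genes, in a comparison in which 45.1% of all genes passed, 14.3% higher and 30.9% lower. *Slc11a1* was 1.60 times as high (log2 difference 0.68 ± 0.061, SE, adjusted p = 0.000139), with 0.73 and 0.63 within replicates 1 and 2. *Slc40a1* was at 0.544 of WT (-0.86 ± 0.13, adjusted p = 0.00146), with -1.0 and -0.72 within replicates. *Steap3* was 1.21 times as high (0.27 ± 0.074, adjusted p = 0.0223). The *Steap3* call was lost without WT RANKL replicate 1 (adjusted p = 0.0598), WT RANKL replicate 2 (0.114) or Mir182ΔM/ΔM RANKL replicate 1 (0.123), and in a fit of these 4 libraries alone (0.0516).

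The remaining 4 genes did not pass after RANKL. With the replicate block, under which 73.2% of all genes passed, 6 of the 7 did. *Fth1* was 1.24 times as high in Mir182ΔM/ΔM cells without overlap (0.31 ± 0.12, SE, adjusted p = 0.0787), and passed with the replicate block (adjusted p = 1.12e-08), with TMM scaling (difference 0.47, adjusted p = 0.0203) and without Mir182ΔM/ΔM RANKL replicate 2 (adjusted p = 0.0469). *Slc11a2* overlapped between genotypes, with a log2 difference of -0.24 ± 0.13, and passed with the block (adjusted p = 4.7e-05). *Tfrc* also overlapped, at -0.078 ± 0.11, with an adjusted p of 0.0271 with the block, and was 0.075 higher with TMM scaling. The *Ftl1* difference was 0.057 ± 0.16. The osteoclast marker sums given above were lower in Mir182ΔM/ΔM RANKL than in WT RANKL, and their part in these differences was not tested.

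**Figure D4:**
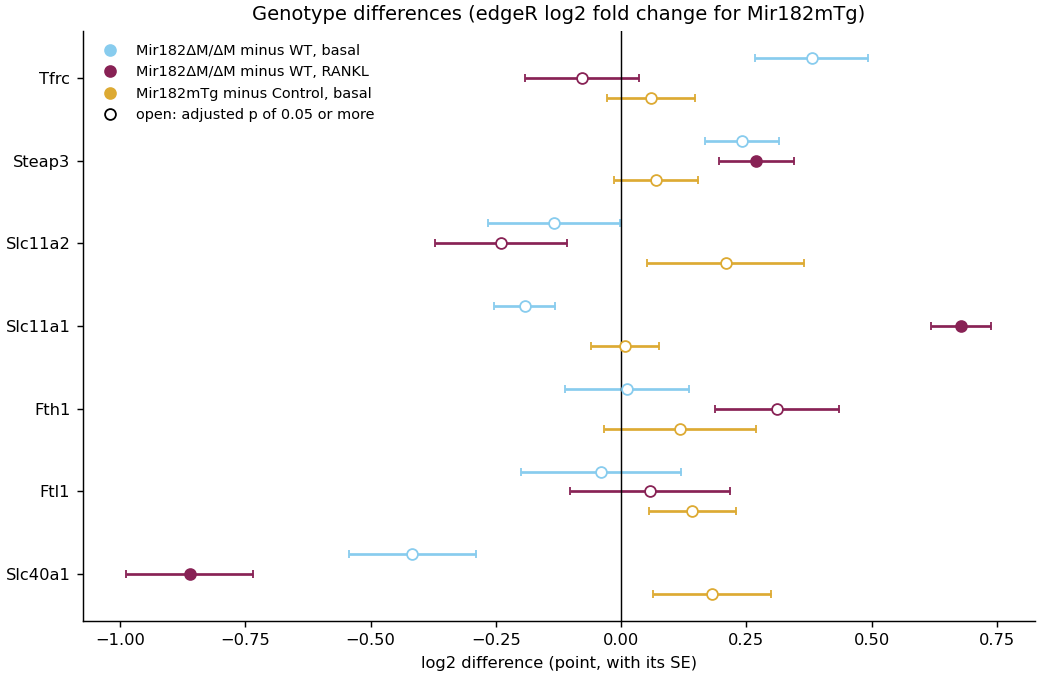
Log2 differences between genotypes for each gene, with the SE: Mir182ΔM/ΔM minus WT at basal (light blue) and after RANKL (purple), and Mir182mTg minus Control at basal (yellow, edgeR). Only *Slc11a1*, *Steap3* and *Slc40a1* after RANKL are filled, that is past an adjusted p of 0.05 without the replicate block.

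The RANKL response itself differed between genotypes for *Slc11a1*, which fell less in Mir182ΔM/ΔM cells. The difference of the responses was 0.87 ± 0.086 on the log2 scale (SE, adjusted p = 0.000497), 0.89 within replicate 1 and 0.86 within replicate 2. It was the only one of the 7 genes past the threshold, beside 24.6% of all genes, 7.44% above and 17.1% below 0. *Slc40a1* (-0.44 ± 0.18, -0.59 and -0.30 within replicates, adjusted p = 0.122) and *Fth1* (0.30 ± 0.18, adjusted p = 0.269) did not pass, but did with the replicate block (adjusted p = 1.5e-05 and 5.22e-06), in a fit that called 4 of the 7 genes and 58.9% of all genes. *Slc40a1* also passed without Mir182ΔM/ΔM RANKL replicate 2 (adjusted p = 0.0259). All of these rest on the WT RANKL libraries, in which *Lyz2* and *Ifi202b* stood apart.

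In Mir182mTg against Control cells none of the 7 genes passed by edgeR's quasi-likelihood test on counts over 12081 genes, by DESeq2 or by limma, and none had an unadjusted p below 0.05. Over all genes 0.257% passed, 0.0993% higher and 0.157% lower. The log2 fold changes of all 7 were above 0, from 0.0075 ± 0.068 (SE) for *Slc11a1* to 0.21 ± 0.16 for *Slc11a2*. Only the *Ftl1* libraries did not overlap (0.14 ± 0.086, adjusted p = 0.958). The shares of all genes above 0 or without overlap are not given here, so neither count is read as a result about the 7 genes. With the replicate block, 4 passed by edgeR, with adjusted p = 0.00116 for *Ftl1* (0.14 ± 0.026, SE), 0.00194 for *Slc40a1* (0.18 ± 0.035), 0.00577 for *Slc11a2* (0.21 ± 0.047) and 0.00681 for *Fth1* (0.12 ± 0.028), and the calls over all genes went from 31 to 1822 (15.1%).

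The wider iron pathway was read from 53 other genes, of which 51 were in the files and 42 were tested in the loss of function experiment (the plot of log2 differences by list). With RANKL 16 rose and 14 fell in WT cells, where 40.6% of all genes were higher and 22% lower. The counts in Mir182ΔM/ΔM cells were 8 and 14, where 30.4% of all genes were higher and 26.4% lower. With the replicate block 37 and 35 of the 42 passed, beside 81.8 and 79% of all genes. The median log2 difference was 0.19 in WT, as over all genes, and -0.07 in Mir182ΔM/ΔM cells, beside 0.05 over all genes.

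Genes of haem breakdown fell, 4 of 4 in WT, where 22% of all genes were lower. In Mir182ΔM/ΔM cells 3 of 4 fell, where 26.4% of all genes were lower. There *Hmox2* (-0.14, adjusted p = 0.158) did not pass, while with the replicate block it did (adjusted p = 0.000996). *Hmox1*, the inducible haem oxygenase that frees iron from haem, went from 1390 and 1317 CPM to 206 and 210 CPM in WT and from 1360 and 1334 CPM to 238 and 230 CPM in Mir182ΔM/ΔM cells. The log2 difference was -2.69 ± 0.058 (SE, adjusted p = 1.29e-07) and -2.52 ± 0.058 (adjusted p = 2.35e-07). *Hmox1* was at 966 and 937 CPM in Control and 1233 and 1163 CPM in Mir182mTg. This log2 difference, 0.32 ± 0.071, had an adjusted p of 0.284 by edgeR (SE given) and of 4.71e-07 with the replicate block.

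Of 8 other uptake and reduction genes, 5 fell in each genotype, while 2 rose in WT and 1 in Mir182ΔM/ΔM cells. Over all genes 22% were lower and 40.6% higher in WT, and 26.4% and 30.4% in Mir182ΔM/ΔM cells. *Slc48a1*, a haem transporter of the phagolysosome, fell by 1.31 ± 0.11 in WT and by 1.09 ± 0.11 in Mir182ΔM/ΔM cells (SE, adjusted p = 4.18e-05 and 0.000126). *Slc39a8*, a metal transporter, fell by 1.70 ± 0.12 and by 0.95 ± 0.12, a difference between responses of 0.75 ± 0.17 (adjusted p = 0.0160). *Lrp1*, a receptor for the haem carrier haemopexin and other ligands, fell by 1.22 ± 0.095 in WT, and its response differed by 0.62 ± 0.13 (adjusted p = 0.0151, and 0.0766 under quantile normalization). *Steap4*, a ferrireductase, was below the floor in WT basal, with a mean of 0.0611 CPM, and reached 13.3 ± 0.46 CPM (SD, n = 2) in WT RANKL and 6.49 ± 0.12 CPM in Mir182ΔM/ΔM RANKL. *Slc46a1*, a proton-coupled folate transporter that also carries haem, went from 7.39 ± 0.017 to 13.8 ± 0.45 CPM in WT and from 6.89 ± 0.17 to 6.58 ± 1.6 CPM in Mir182ΔM/ΔM cells, a difference between responses of -0.89 ± 0.20 (SE, adjusted p = 0.0163, and 0.0579 under quantile normalization).

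Among 4 export and control genes, 2 rose and 1 fell in WT, where 40.6% of all genes were higher and 22% lower. In Mir182ΔM/ΔM cells 2 rose and 2 fell, where 30.4% of all genes were higher and 26.4% lower. Those that fell, named after their values were seen, were *Hfe*, a partner of the transferrin receptors (log2 difference -1.08 in WT and -0.69 in Mir182ΔM/ΔM cells), and in Mir182ΔM/ΔM cells *Abcg2*, an efflux transporter (-0.35). *Cp*, the ferroxidase ceruloplasmin, which acts with ferroportin, went from 2.23 ± 0.43 to 10.9 ± 0.13 CPM (SD, n = 2) in WT and from 1.30 ± 0.17 to 19.6 ± 0.060 CPM in Mir182ΔM/ΔM cells, a difference between responses of 1.28 ± 0.17 on the log2 scale (SE, adjusted p = 0.00173). *Spic* encodes a transcription factor of iron-recycling macrophages known to switch on *Slc40a1*. It went from 1.46 to 17.9 CPM in WT and from 0.780 to 9.87 CPM in Mir182ΔM/ΔM cells, while *Slc40a1* fell. Any link between these changes was not tested.

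Of 10 genes of mitochondrial iron and iron-sulphur clusters, 7 rose, 1 fell and 2 did not pass in WT, where 40.6% of all genes were higher and 22% lower. Of the same genes 2 rose and 1 fell in Mir182ΔM/ΔM cells, where 30.4% of all genes were higher and 26.4% lower. These counts were the same under TMM and quantile scaling. The difference between responses passed for 2 of the 10, both below 0, and 8 did not pass. Over all genes 7.44% were above and 17.1% below 0. With TMM scaling 2 of the 10 were above and 1 below 0. The WT counts and these differences rest on the WT RANKL libraries, so the counts of the genotypes are not read as a lost response. *Iscu*, a scaffold for cluster assembly, rose by 1.10 ± 0.21 in WT (SE, adjusted p = 0.00282) and was 0.40 ± 0.21 higher in Mir182ΔM/ΔM cells without passing (adjusted p = 0.141, and 0.000202 with the replicate block). *Slc25a28*, a mitochondrial iron importer, rose by 0.86 ± 0.073 and *Glrx5*, a glutaredoxin of cluster assembly, by 0.62 ± 0.11 in Mir182ΔM/ΔM cells (adjusted p = 6.09e-05 and 0.00233). In WT they rose by 0.61 ± 0.073 and 0.84 ± 0.11 (adjusted p = 0.000299 and 0.00044). The response of *Isca1*, a further assembly factor, differed between genotypes (-0.61 ± 0.12, adjusted p = 0.0115, and 0.0691 under quantile normalization). In haem synthesis, 3 of 8 rose and 1 fell in WT, beside 40.6 and 22% of all genes. In Mir182ΔM/ΔM cells 1 rose and 0 fell, beside 30.4 and 26.4%. With TMM scaling 1 rose and 1 fell in WT, where 3355 genes were higher and 3571 lower of 11688. These counts are not read as a result about haem synthesis.

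Of 5 iron sensing genes, 1 rose and 2 fell with RANKL in each genotype, while in WT with TMM scaling 0 rose and 3 fell. Without that scaling, 40.6% of all genes were higher and 22% lower in WT, and 30.4% and 26.4% in Mir182ΔM/ΔM cells. With it, 3355 genes were higher and 3571 lower of 11688 in WT. Storage and handling genes numbered 3 tested, and *Pcbp1*, an iron chaperone for ferritin, rose by 0.38 ± 0.079 in Mir182ΔM/ΔM cells (SE, adjusted p = 0.00544) and by 0.75 ± 0.079 in WT (adjusted p = 0.000147), a difference between responses of -0.38 ± 0.11 (adjusted p = 0.0474). *Aco1*, which encodes the iron regulatory protein IRP1, was at 122 ± 3.2 and 123 ± 5.2 CPM (SD, n = 2) in WT basal and RANKL and at 117 ± 3.6 and 69.6 ± 4.5 CPM in Mir182ΔM/ΔM basal and RANKL. Its response differed between genotypes by -0.75 ± 0.10 (SE, adjusted p = 0.00212). *Ncoa4*, the receptor that brings ferritin to the lysosome, was at 80.9 CPM in both WT conditions and fell from 62.6 ± 7.3 to 34.3 ± 6.4 CPM in Mir182ΔM/ΔM cells, by 0.86 ± 0.20 on the log2 scale (SE, adjusted p = 0.00793), and its response did not differ past the threshold (adjusted p = 0.0637) except with the replicate block (adjusted p = 7.77e-10). In the gain of function libraries *Ncoa4* was at 23.1 ± 4.2 CPM in Control and 21.7 ± 3.8 CPM in Mir182mTg.

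The Control basal levels of these genes were as follows. *Slc46a1* was at 10.8 ± 1.2 CPM (SD, n = 2) in Control, between WT basal and WT RANKL, and *Iscu* at 22.0 ± 1.2 CPM, also between them. *Aco1* was at 96.8 ± 6.5 CPM, below both. For *Lrp1* (5196 ± 413 CPM), *Slc39a8* (30.6 ± 3.2 CPM) and *Slc48a1* (496 ± 37 CPM) the Control mean lay above that of WT RANKL. *Steap4* was listed at 0 in Control, and *Cp* (0.421 ± 0.099 CPM) and *Spic* (0.552 ± 0.032 CPM) were lower there than in WT basal.

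Between genotypes, 9 of the 42 genes were higher and 13 lower in Mir182ΔM/ΔM cells after RANKL, beside 14.3 and 30.9% of all genes. With the replicate block 14 of 42 passed at basal (31.2% of all genes), 36 after RANKL (73.2%), 33 in the interaction (58.9%, in place of 11) and 10 of 41 in Mir182mTg against Control (15.1%). Without it, 0 passed at basal by limma or by edgeR, with 5 at an unadjusted p below 0.05 by limma and 6 by edgeR. In the gain of function experiment 0 of 41 tested passed by edgeR, with 4 at an unadjusted p below 0.05. The shares of all genes at an unadjusted p below 0.05 are not given here. DESeq2 and limma each called *Lcn2*, chosen after its values were seen, which encodes a siderophore-binding protein of neutrophils and was higher in Mir182mTg. Its log2 fold change was 2.57 ± 0.30 by edgeR (SE, adjusted p = 0.0606, and 9.83e-07 by edgeR with the replicate block). It was 2.55 ± 0.41 by DESeq2 (adjusted p = 3.41e-07) and 1.70 ± 0.18 by limma on log2(CPM + 1) (adjusted p = 0.0462). The summed neutrophil markers were 78.2 to 80.9 CPM in Mir182mTg and 41.1 to 42.3 CPM in Control, and their part in it was not tested.

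**Figure D5:**
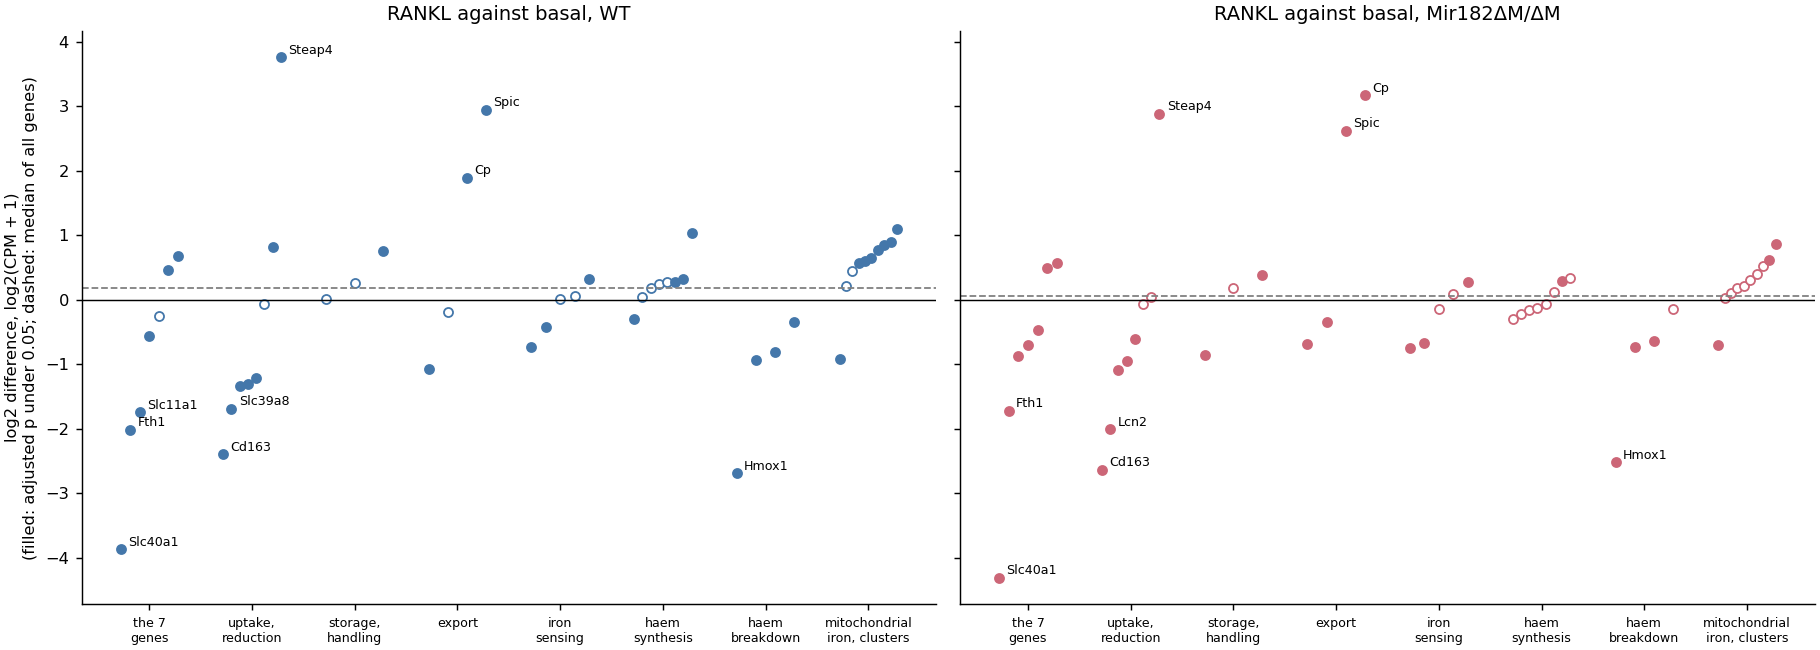
Log2 difference between RANKL and basal for the 7 genes and 7 lists of other iron genes in WT (left) and Mir182ΔM/ΔM (right) cells, each point a gene, filled where the adjusted p was under 0.05, with the median of all genes dashed. *Slc40a1* and *Hmox1* are among the lowest points in both panels, and the mitochondrial genes lie mostly above 0. Of these, 7 of 10 were up in WT and 2 of 10 in Mir182ΔM/ΔM cells, beside 40.6 and 30.4% of all genes. The difference between responses passed for 2 of the 10, beside 24.6% of all genes, and rests on the WT RANKL libraries.

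Some genes followed the 7 closely over the 12 libraries, after the mean of each replicate number was removed. Out of 9452 genes, those with the highest Pearson correlation with *Slc40a1* were *1700021K19Rik*, *Sptssa* and *Tmem87b* (r = 0.996 to 0.997), and with *Fth1* they were *Mettl7a1*, *Cd93* and *Snx24* (r = 0.994 to 0.999). For *Slc11a1* they were *B430306N03Rik*, *Creg1* and *Ppt1* (r = 0.992 to 0.995) and for *Steap3* *Flrt2*, *Cgnl1* and *Gprc5b* (r = 0.976 to 0.991). *Ftl1* was followed by *Smim3*, *Gcnt1* and *Vav1* (r = 0.984 to 0.989), *Slc11a2* by *Prcp*, *Dnaaf3* and *Gm2a* (r = 0.982 to 0.985) and *Tfrc* by *Srgap2*, *Pyroxd2* and *Zfyve26* (r = 0.966 to 0.975). Among the 7 genes themselves, *Fth1* and *Slc11a1* were most alike (r = 0.968) and *Ftl1* and *Slc11a2* most opposed (r = -0.885), while *Tfrc* and *Slc11a1* had r = 0.118. The 12 libraries are 6 conditions with shared treatment and origin, so these values only describe the pattern.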

How the data were processed

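RNA-seq of BMMs from 12 libraries was analysed, 2 per condition, grouped by their labels. Poly-A selected RNA was sequenced by the authors, mapped on mm10 and summed by gene, and for the 8 loss of function samples they deposited CPM. For the 4 gain of function samples they deposited raw counts, and for replicate 1 also RPKM, from which one length per gene follows. Per the labels, replicate 1 was processed with TopHat and Cufflinks and replicate 2 with HISAT2, HTSeq and edgeR, and the labels name polyA RNA for the first and total RNA for the second. Whether these steps placed multi-mapped reads was not given in the sources used here. CPM were whole reads for 100% of values, within 0.01 read. Among the 24421 symbols, 27 read as dates and stayed unnamed.

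Loss of function samples were fitted together in 4 groups with limma 3.58.1 (trend) on log2(CPM + 1) of genes at 1 CPM or more in at least 2 samples, so that fold changes of low genes are understated. The counts of Control and Mir182mTg were fitted in edgeR 4.0.16 (TMM, filterByExpr, quasi-likelihood), with DESeq2 1.42.0 as an alternative. SEs of edgeR are the log2 fold change over the root of F. Benjamini-Hochberg adjustment ran over all genes tested and the threshold was 0.05. Fits were tested on simulated data. Replicates were described as independent by the study, but whether a library is 1 animal was not given, so p-values measure the spread between these samples.

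Same-numbered samples share a processing batch by label and deviate together (r = 0.686 to 0.754 over 15 pairs of conditions), so numbers pair samples by batch and fits with the replicate block are given beside results they change. The 7 genes, the iron lists and the marker lists were chosen with earlier results of these data known. Named beyond the 7 genes were, per comparison, at most 4 iron genes in each direction with the largest change among those past the threshold and at 10 CPM or more, and the 3 genes most correlated with each of the 7. A gene that this rule selects is not reported here. Alternatives were another pseudocount (0.1), no filter, TMM and quantile scaling, edgeR on recovered reads, the block, other sample sets, other tools for counts and each sample left out. A further pair was added after seeing the data: edgeR on recovered reads with the block, and a fit without the WT RANKL libraries. Sequences were read from GENCODE vM21 and RefSeq.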

Additional observations from a re-analysis of the deposited data

Results flagged for a closer look

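*Slc11a1* was marked because its RANKL response differed between the genotypes by a direct test, with an interaction of 0.87 ± 0.086 on the log2 scale (SE, limma, adjusted p = 0.000497). The response was lower in size in Mir182ΔM/ΔM cells in both replicates, and with each library left out in turn the value ranged from 0.82 to 0.92 with an adjusted p of at most 0.00411. With TMM scaling it was 1.04 (adjusted p = 0.000312). It rests on the WT RANKL libraries, whose *Lyz2* and *Ifi202b* levels were those of the gain of function libraries, and the part of this in the value was not tested.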

How the results depend on the processing

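Of 630 values of the 7 genes under the alternatives, 551 kept their direction and their side of the threshold. The replicate block moved the number of the 7 genes called from 0 to 5 for Mir182ΔM/ΔM against WT at basal, from 3 to 6 after RANKL, from 1 to 4 for the interaction and from 0 to 4 for Mir182mTg against Control, while the share of all genes called was then 31.2, 73.2, 58.9 and 15.1%. It changed no call of the Mir182ΔM/ΔM RANKL response, and of the WT response only that of *Tfrc*, both given in the report. With edgeR on recovered reads and the block, added after seeing the data, the counts were 5 at basal, 6 after RANKL and 6 for the interaction, beside 29.4, 67 and 47.1% of all genes. A fit with a library left out leaves 1 library in a group, so counts of the 7 genes past the threshold in such fits are not given. Over all genes the basal count was 446, lower with any library left out, and 102 with the samples of the comparison alone. For Mir182mTg it was 31, then 124 with DESeq2, 141 with no filter and 1822 with the block. It was higher with any library left out, where a lone sample was assumed to vary like the other group.

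Reversed signs were all of values that did not pass in the main limma and edgeR fits. *Tfrc* after RANKL did pass by limma with the replicate block, at -0.078 (adjusted p = 0.0271), so the sign of a called value turned with the scaling. With TMM scaling, edgeR on recovered reads and edgeR with the block, *Fth1* at basal was -0.0033, -0.0036 and -0.0042, *Slc11a2* in the interaction 0.061, 0.059 and 0.062, and *Tfrc* after RANKL 0.075, 0.077 and 0.075. With a library left out the ranges were -0.079 to 0.10 for *Fth1* and -0.19 to 0.11 for *Ftl1* at basal, -0.12 to 0.24 for *Ftl1* and -0.21 to 0.049 for *Tfrc* after RANKL, -0.084 to 0.28 for *Ftl1*, -0.25 to 0.036 for *Slc11a2* and -0.033 to 0.089 for *Steap3* in the interaction, and -0.049 to 0.31 for *Fth1*, -0.026 to 0.043 for *Slc11a1* and -0.032 to 0.14 for *Tfrc* in Mir182mTg. With no filter *Ftl1* in Mir182ΔM/ΔM cells lost its call (adjusted p = 0.0846 by limma). The cause was not tested. With 2 libraries a group, small differences can be missed.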
